A study of Rattus norvegicus with 4 samples.

Results

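The genes described here encode potassium, calcium, sodium and chloride channels, channels of the TRP family, and auxiliary subunits of these channels, in INS-1, a rat insulinoma line that secretes insulin and comes from the NEDH strain. Members were taken by name alone: every gene whose deposited symbol begins with Kcn, Cacn or Clcn, or with Scn, Hcn, Trpc, Trpm or Trpv followed by a digit. This gave 162 of the 18666 genes with a symbol on the array, measured by 163 probe sets, since Scn3a had 2 and the one with the higher mean signal was used. The rule itself uses no measured value.

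Cells grown in RPMI medium with serum received forskolin at 10 µM in DMSO, or DMSO alone (vehicle), for 2 h or 16 h. Forskolin, made by a plant, switches on adenylyl cyclase and so raises cAMP. All 4 groups therefore carried DMSO and serum, and each was hybridised to 1 Affymetrix rat gene array. Differences at 2 h or at 16 h alone therefore carry no p-value and no check by replicates, which limits the precision of every value below. Since whole cultures were measured, fewer cells of a kind and less RNA per cell cannot be told apart.

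A beta cell converts glucose metabolism into voltage. ATP closes the KATP channel, the membrane depolarises, voltage-gated calcium and sodium channels fire action potentials, calcium entry triggers insulin granule fusion, and voltage- and calcium-activated potassium channels end each spike. cAMP acts on this sequence through protein kinase A, which phosphorylates channel proteins, through direct binding to HCN channels, and through transcription factors of the CREB family, which bind the cAMP response element (CRE). The arrays measured transcripts, not channel proteins or currents.

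Values are log2 signals, and differences are forskolin minus vehicle at the same time on that scale, so 1 unit is 2-fold. Across probe sets, signals of any pair of arrays correlated with Pearson coefficients of 0.985 to 0.993. A gene was called expressed where its mean over the 4 arrays exceeded 5.48, the 90th percentile of the same mean over 1153 negative control probe sets. By that level 39 of the 162 channel genes were expressed and 123 were not. On every array, 44 of the 162 lay below the median of the negative controls. Of the 39, Clcn6 was among those that exceeded the 90th percentile of the controls on 1 array only. The deposited tables flag 0 of the 162 probe sets for cross-hybridisation. As for the cell type, 8 of 9 measured beta-cell markers were expressed, among them Ins1, Ins2, Iapp and Slc2a2 but not Nkx6-1, and 2 of 19 markers of other cell types were, Gcg and Ctrb1. The mean signal of the 19 other markers was 3.92 and 4.19 with vehicle and forskolin at 2 h, and 3.96 and 4.17 at 16 h. The endothelial marker Kdr weighed most in these means, with the largest difference of the 19 at both times, 3.73 and 2.12. Its signals were 4.13 and 7.86 at 2 h and 3.82 and 5.94 at 16 h. Pecam1 and Cdh5, the other endothelial markers, lay below the median of the negative controls on all arrays. Gcg, with a mean signal of 12.07 beside 12.17 for Ins2, differed by 0.24 at 2 h and 0.61 at 16 h. Ctrb1 differed by 0.03 and 1.05. Some of the 19 markers were lower with forskolin at both times. The part of these markers in the channel results was not tested.

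Most channel transcripts lay close to vehicle at both times. At 2 h, 1 of 162 was at least 2-fold higher with forskolin (Clcn5) and 1 was at least 2-fold lower (Kcnh6), beside 1.13% and 0.793% of all genes. At 16 h, 5 were at least 2-fold higher (among them Trpc5, Kcnma1, Kcnk2 and Kcnh1) and 2 were at least 2-fold lower (Cacna1a and Cacng6), beside 1.32% and 1.1% of all genes. Trpc5, Kcnk2 and Cacng6 were below the expression level and are named because of their values. With a 1.5-fold threshold, 4 were higher and 7 lower at 2 h, beside 3.53% and 5.13% of all genes, and 12 were higher and 13 lower at 16 h, beside 4.86% and 4.72%. Of the 39 expressed genes, 1 was 2-fold higher and 1 lower at 2 h, beside 1.9% and 1.1% of expressed genes, and 3 were higher and 1 lower at 16 h, beside 1.98% and 1.75%. At 1.5-fold these were 2 higher and 3 lower at 2 h, beside 4.32% and 7.39%, and 7 higher and 4 lower at 16 h, beside 6.88% and 6.36%. No test was made of the channel genes' shares against those of all genes. The median difference of the 162 was -0.03 at 2 h and -0.02 at 16 h, against -0.01 and 0.00 over all genes. For the 39 expressed channel genes it was -0.03 and 0.04, against -0.09 and 0.02 over all expressed genes. That -0.09 at 2 h became 0.00 after cyclic loess, which draws the arrays to a common level by design. It therefore cannot tell a shift in scaling from lower transcripts. Whether single differences at 2 h carry such a shift was not tested. For scale, the vehicle array of 16 h differed from that of 2 h by 2-fold in 0 of the 162. Beside this, 0.075% of all genes were higher and 0.0268% lower, and the SD of that difference over all genes was 0.258. Its median over expressed genes was -0.08. Time in culture and array cannot be told apart in the vehicle difference, and it shares the 2 h vehicle array with every 2 h difference. At 1.5-fold, 1 of the 162 was higher and 4 were lower on the later vehicle array, beside 1.43% and 1.52% of all genes; among the expressed, 0 were higher and 2 lower, beside 0.549% and 1.98%.

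**Figure D1:**
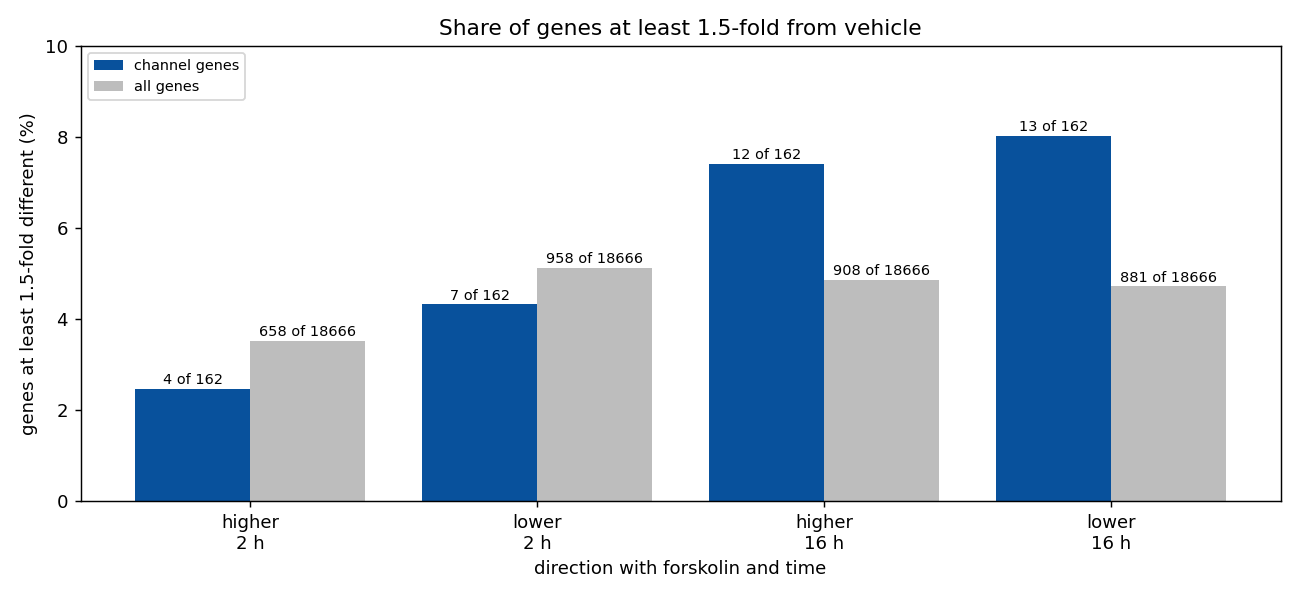
Bars give the share of genes, in percent, at least 1.5-fold higher or lower with forskolin than with vehicle at 2 h and 16 h, for the 162 channel genes and for all 18666 genes, with the number of genes above each bar. At 16 h the channel genes stand at 12 higher and 13 lower of 162, and at 2 h at 4 higher and 7 lower; there is 1 array per group and so no error bar.

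The KATP channel couples metabolism to voltage, and its pore subunit Kcnj11 was lower with forskolin by nearly the same amount at both times. Kcnj11 had log2 signals of 8.97 with vehicle and 8.41 with forskolin at 2 h, and of 8.98 and 8.45 at 16 h. Both forskolin arrays lay below both vehicle arrays, which differed by only 0.01. The differences of -0.57 and -0.53 are 1.48-fold and 1.45-fold. A limma fit to the 4 arrays, with 1 term for treatment and 1 for time, gave a mean difference of -0.55 with a standard error of 0.15, and its limma adjusted p of 0.151 missed the threshold of 0.05. Abcc8, the regulatory subunit of the same channel and not a member by name, had 8.74 and 8.54 at 2 h and 8.42 and 7.85 at 16 h. Kcnj8, the other pore subunit of this kind, lay between 2.81 and 3.37, at the level of the negative controls.

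Other inward rectifiers numbered 13, of which 4 were expressed, and medians of -0.06 at 2 h and -0.01 at 16 h describe them together. Kcnj3 encodes a subunit of the G protein-gated channels. It had signals of 5.41 with vehicle and 5.88 with forskolin at 2 h, and of 5.91 and 6.70 at 16 h. Forskolin was higher at both times, by 0.47 and 0.79, but the vehicle arrays also differed by 0.50 and the 2 h forskolin array lay below the 16 h vehicle array. In limma the mean difference was 0.63 with a standard error of 0.22 and an adjusted p of 0.239. Kcnj6, its partner subunit, had 5.68 and 5.35 at 2 h and 5.59 and 6.38 at 16 h, a difference of -0.33 and then of 0.79. The classical inward rectifiers Kcnj2 and Kcnj12 differed from vehicle by 0.36 and 0.26 at 2 h and by -0.01 and 0.09 at 16 h.

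**Figure D2:**
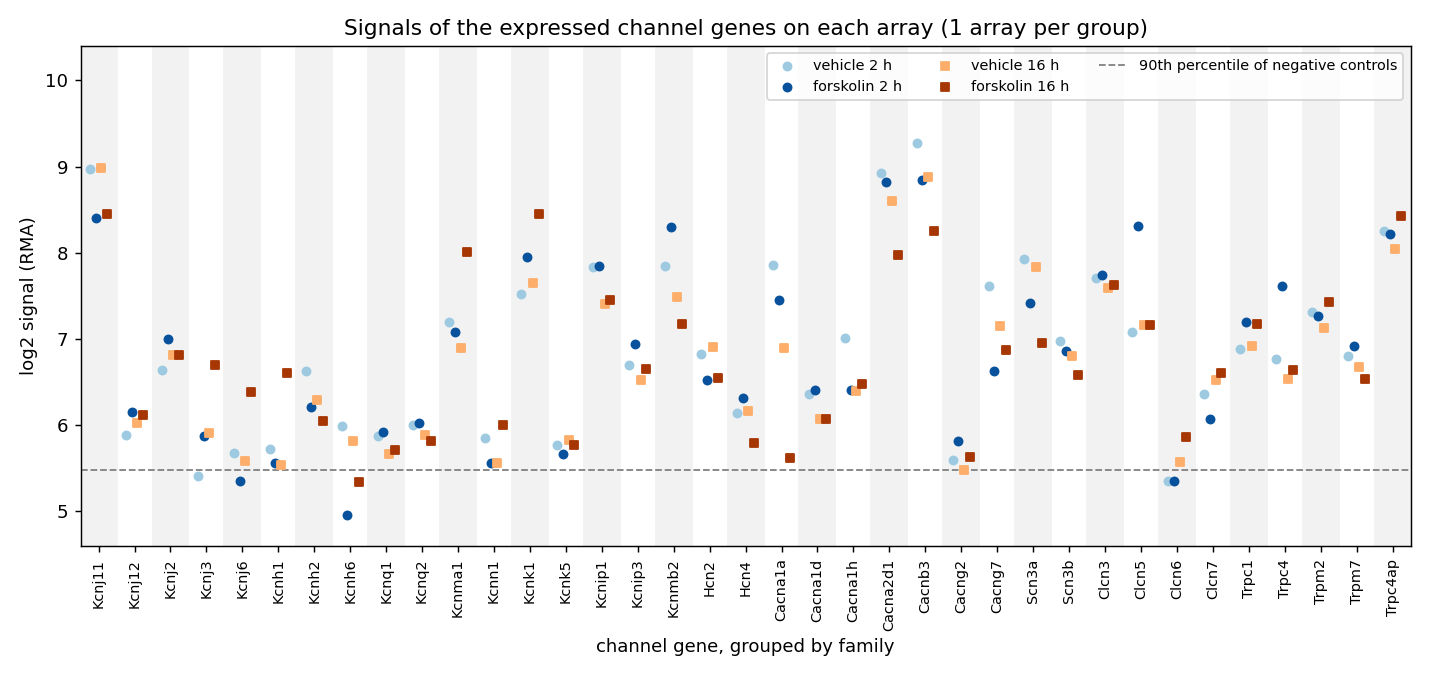
Points give the log2 signal of 37 of the 39 expressed channel genes on each of the 4 arrays, grouped by family along the horizontal axis, with the 90th percentile of the negative controls as a dashed line. Kcnj11 has both vehicle arrays above both forskolin arrays, Clcn5 has the 2 h forskolin array apart from the other arrays, and Kcnma1 has the 16 h forskolin array apart.

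Voltage-gated calcium channels carry the calcium that triggers insulin release. Of their 7 expressed genes, 4 had a difference below 0 at 16 h, from -1.28 to -0.27, beside 47% of all expressed genes, a share that 4 of 7 is near. Cacna1a, the pore of the P/Q-type channel, had signals of 7.86 with vehicle and 7.45 with forskolin at 2 h, and of 6.90 and 5.62 at 16 h. Each array of the later time lay below each of the earlier one, and forskolin lay below vehicle at both. The difference at 16 h was -1.28, 2.43-fold lower, and that at 2 h was -0.41. The difference between the vehicle arrays, -0.96, was the most negative among the 162 and was larger in size than the forskolin difference at 2 h. The limma mean difference was -0.85 with a standard error of 0.24 and an adjusted p of 0.163.

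The L-type pores differed less. Cacna1d had 6.37 with vehicle and 6.41 with forskolin at 2 h, and 6.07 with each at 16 h, so its arrays were set apart by time and not by treatment. Cacna1c, whose mean of 5.08 was below the expression level, had 5.65 and 5.30 at 2 h and 4.97 and 4.40 at 16 h, a decline across the arrays like that of Cacna1a with a vehicle difference of -0.69. The T-type pore Cacna1h was apart on 1 array: its 2 h vehicle signal was 7.01, and the other arrays read 6.41, 6.40 and 6.48. Its difference of -0.61 at 2 h is therefore as large as the difference of -0.61 between the vehicle arrays.

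Auxiliary subunits bring the calcium channel pore to the membrane and set its gating. Cacnb3, a beta subunit, had 9.27 with vehicle and 8.85 with forskolin at 2 h, and 8.88 and 8.25 at 16 h. The difference was -0.42 and then -0.63, against -0.39 between the vehicle arrays. Over both times limma gave -0.52 with a standard error of 0.15 and an adjusted p of 0.165. Cacna2d1, an alpha2delta subunit, had 8.93 and 8.82 at 2 h and 8.60 and 7.97 at 16 h, with the 16 h forskolin array lowest. All 4 alpha2delta genes had a difference below 0 at 16 h, from -0.63 to -0.18, beside 49.3% of all genes. At 2 h 2 of the 4 were below 0 and 2 above, and Cacna2d1 alone was expressed. Cacnb2, a beta subunit just below the expression level, had differences of -0.19 and -0.52.

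Gamma subunits include the TARPs, which in neurons traffic AMPA receptors. Cacng7 had 7.62 with vehicle and 6.63 with forskolin at 2 h, and 7.15 and 6.87 at 16 h. Its difference at 2 h, -0.99 or 1.98-fold, was just short of 2-fold, and that at 16 h was -0.27. The forskolin arrays lay below both vehicle arrays. The limma mean difference was -0.63 with a standard error of 0.23 and an adjusted p of 0.250. Cacng6 had 5.01 and 4.34 at 2 h and 4.88 and 3.79 at 16 h, so its 2-fold difference at 16 h was measured below the expression level. Cacng2 differed by 0.21 and 0.16.

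Sodium channels add to the upstroke of the action potential. Scn3a, a pore subunit described in rodent beta cells, had 7.93 with vehicle and 7.41 with forskolin at 2 h, and 7.84 and 6.96 at 16 h. The vehicle arrays differed by -0.09 and both forskolin arrays lay below them. Differences were -0.52 at 2 h and -0.88 at 16 h, 1.43-fold and 1.85-fold, and the limma adjusted p of 0.146 was the lowest of any channel gene fitted (mean difference -0.70, standard error 0.19). The second Scn3a probe set gave -0.18 and -0.66, with signals of 7.56 and 7.38 at 2 h and 7.36 and 6.70 at 16 h. On that probe set the 2 h forskolin array lay just above the 16 h vehicle array. Of the other 9 sodium channel pore genes, none was expressed. Among them Scn2a1 had differences of -0.47 and -0.73 from vehicle signals of 4.29 and 3.94, below the 75th percentile of the controls. Scn8a lay between 4.61 and 4.73 and Scn9a between 2.01 and 2.51. Scn3b, an expressed auxiliary beta subunit gene, differed by -0.11 and -0.22.

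Calcium-activated potassium channels end bursts of spikes. Kcnma1, the pore of the large-conductance BK channel, had 7.20 with vehicle and 7.08 with forskolin at 2 h, and 6.90 and 8.01 at 16 h. The 16 h forskolin array lay above the 3 others, which lay between 6.90 and 7.20. The difference was 1.11 at 16 h, 2.16-fold, and -0.12 at 2 h. Kcnmb2, a BK beta subunit that causes inactivation, had the opposite order of signs, with 7.84 and 8.30 at 2 h and 7.49 and 7.17 at 16 h. Its differences of 0.45 and -0.31 were of the same size as the vehicle difference of -0.36. Kcnn1, a small-conductance SK channel gene, differed by -0.29 and 0.45, and Kcnn3, below the expression level, by 0.12 and -0.27. Kcnip3, an expressed potassium channel-interacting protein, differed by 0.24 and 0.13.

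Of the 13 genes of the KCNQ and EAG family, 5 were expressed. Kcnh6, an ERG channel gene linked to insulin secretion in mouse and human, had 5.99 with vehicle and 4.96 with forskolin at 2 h, and 5.82 and 5.34 at 16 h. Both forskolin arrays lay below both vehicle arrays and below the 90th percentile of the controls. The differences were -1.03, 2.04-fold lower, and -0.48, and the first was -0.89 after either a further quantile normalization or cyclic loess, short of 2-fold. In limma it was -0.75 on average with a standard error of 0.24 and an adjusted p of 0.194. Kcnh2, the other ERG gene that was expressed, differed by -0.41 and -0.24. Kcnh1, the EAG channel gene, went the other way at the later time, with 5.73 and 5.57 at 2 h and 5.54 and 6.61 at 16 h. Its difference at 16 h was 1.06, 2.09-fold, and the 16 h forskolin array alone stood apart. Kcnq1 differed by 0.04 at both times.

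Delayed rectifier and A-type channels of the Kv subfamilies were not expressed by the level used: 0 of 15 pore genes and 0 of 10 silent subunits reached it. Kcnb2, a delayed rectifier gene, had 5.39 with vehicle and 5.07 with forskolin at 2 h and 4.95 and 4.18 at 16 h, lower with forskolin at both times. Medians of the 15 were -0.10 at 2 h and -0.04 at 16 h.

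Two-pore-domain potassium channels, the Kcnk genes, carry the potassium leak that sets the resting potential. Kcnk1 had 7.52 with vehicle and 7.96 with forskolin at 2 h, and 7.65 and 8.45 at 16 h. Both forskolin arrays lay above both vehicle arrays, which differed by 0.13. Differences were 0.43 and 0.80, 1.35-fold and 1.74-fold, and the limma mean difference of 0.62 had a standard error of 0.18 and an adjusted p of 0.170. Kcnk2 had 5.18 and 4.97 at 2 h and 4.95 and 6.05 at 16 h, so its difference of 1.09 rested on 1 array above the controls. Kcnk3 lay between 4.41 and 4.57 on all arrays.

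HCN channels open on hyperpolarisation and bind cAMP directly. Of 4 genes, 3 were expressed, and no common direction was seen. Hcn2 differed by -0.30 and -0.36 and Hcn4 by 0.18 and -0.36. Hcn3, below the expression level, differed by 0.26 and 0.38.

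CLC genes encode chloride channels and chloride-proton exchangers of endosomes, lysosomes and granules. Clcn5, an endosomal exchanger, had 7.08 with vehicle and 8.31 with forskolin at 2 h, and 7.16 and 7.17 at 16 h. The 2 h forskolin array alone stood apart, and the 3 others lay between 7.08 and 7.17. Its difference of 1.24, 2.36-fold, was the largest of any channel gene at 2 h, and at 16 h it was 0.01. The limma mean difference, 0.62 with a standard error of 0.28, had an adjusted p of 0.362, as that test asks for a difference over both times. Clcn3, the exchanger of endosomes and secretory vesicles, was flat, with 7.71 and 7.74 at 2 h and 7.59 and 7.63 at 16 h.

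Promoter sequences are shown for Clcn3, which holds the only full CRE among the matched channel promoters, and for 3 genes that were at least 2-fold different, Clcn5 at 2 h and Kcnma1 and Cacna1a at 16 h. They are RefSeq windows of build GRCr8, from 250 bases before to 50 after the annotated start, chr16:34137754-34138053, plus strand for Clcn3, chrX:17857010-17857309, plus strand for Clcn5, chr15:351675-351974, plus strand for Kcnma1 and chr19:40650419-40650718, minus strand for Cacna1a, each written 5′ to 3′ on the gene's strand. Capitals mark the CRE, TGACGTCA, and its half-site, TGACG or CGTCA, searched on both strands; a full CRE holds 2 overlapping half-sites.
Clcn3: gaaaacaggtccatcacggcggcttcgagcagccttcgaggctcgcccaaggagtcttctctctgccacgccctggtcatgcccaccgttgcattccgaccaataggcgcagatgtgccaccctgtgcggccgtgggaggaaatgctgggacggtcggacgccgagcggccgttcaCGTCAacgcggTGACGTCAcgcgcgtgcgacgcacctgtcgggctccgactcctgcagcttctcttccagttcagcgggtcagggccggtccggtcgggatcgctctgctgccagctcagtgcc
Clcn5: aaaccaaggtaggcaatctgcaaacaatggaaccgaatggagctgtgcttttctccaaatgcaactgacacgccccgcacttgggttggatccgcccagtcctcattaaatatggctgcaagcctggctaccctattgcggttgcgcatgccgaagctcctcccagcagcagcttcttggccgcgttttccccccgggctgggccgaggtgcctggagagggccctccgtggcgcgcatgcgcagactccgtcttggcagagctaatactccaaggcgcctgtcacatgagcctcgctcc
Kcnma1: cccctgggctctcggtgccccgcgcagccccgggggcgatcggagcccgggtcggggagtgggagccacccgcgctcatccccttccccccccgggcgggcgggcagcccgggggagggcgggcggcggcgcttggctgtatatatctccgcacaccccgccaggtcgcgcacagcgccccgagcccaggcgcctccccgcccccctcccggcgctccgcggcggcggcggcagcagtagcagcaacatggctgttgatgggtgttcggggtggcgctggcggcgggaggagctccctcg
Cacna1a: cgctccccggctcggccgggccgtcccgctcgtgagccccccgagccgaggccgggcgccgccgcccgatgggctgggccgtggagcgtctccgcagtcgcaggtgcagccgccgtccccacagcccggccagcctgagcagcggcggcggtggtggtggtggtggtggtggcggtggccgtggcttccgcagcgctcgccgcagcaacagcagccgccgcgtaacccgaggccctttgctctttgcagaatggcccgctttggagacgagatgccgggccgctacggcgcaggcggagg

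Of the 162 channel genes, 113 matched a window. A full CRE was found in 1 of them, that of Clcn3, at -63 from the start, and a half-site in 26, 23.0%. Over all 27457 promoters 1.91% held the CRE and 22.0% a half-site. Clcn3, with the CRE, had differences of 0.03 at both times. The windows of Clcn5, Kcnma1 and Cacna1a held neither motif, nor did those of Kcnh1, Kcnh6, Trpc5, Kcnk2 and Cacng6. The search covered 1 annotated start per gene and these letters only.

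TRP channels pass cations and calcium. Among the TRPC genes, Trpc4 had 6.76 with vehicle and 7.62 with forskolin at 2 h, and 6.53 and 6.64 at 16 h. The 2 h forskolin array stood apart, by 0.85 or 1.81-fold, and the difference at 16 h was 0.11. Trpc1 differed by 0.30 and 0.25, with both forskolin arrays above both vehicle arrays. Trpc5 had 2.96 and 2.94 at 2 h and 2.60 and 4.13 at 16 h, a difference of 1.53 that lay wholly below the expression level, so no fold is given. Trpc4ap, a TRPC4-associated protein and not a channel, differed by -0.03 and 0.38. Trpm2, an oxidant-gated channel gene, differed by -0.05 and 0.31. Trpm4 and Trpm5, which pass monovalent cations after a calcium rise, lay between 2.86 and 4.27 on all arrays, and Trpm3 between 4.16 and 4.69. None of the 6 TRPV genes was expressed.

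**Figure D3:**
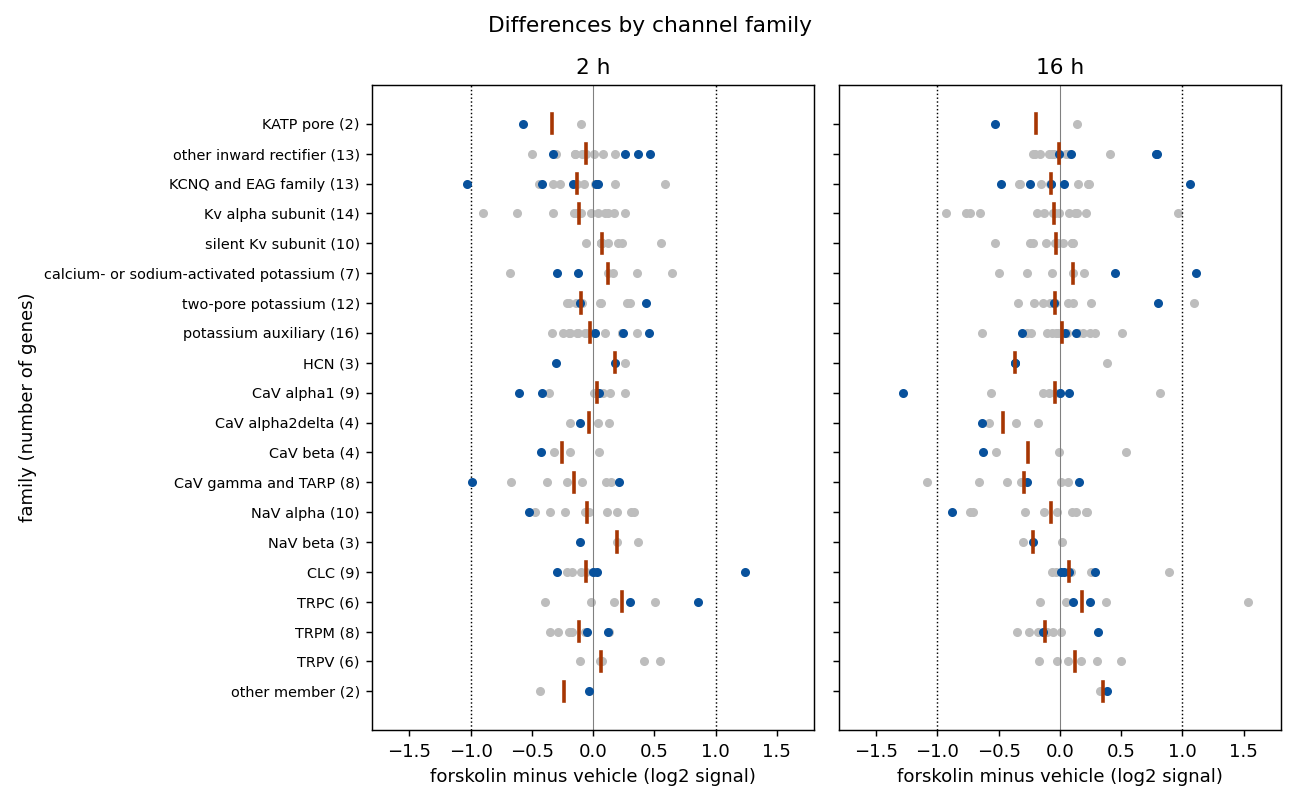
Each point is the log2 difference, forskolin minus vehicle, of 1 of 159 channel genes at 2 h (left) or 16 h (right), by family with the number of genes drawn in brackets; blue points are expressed genes, grey points are below the level, the bar is the median of the genes drawn and dotted lines mark 2-fold. Medians stay between -0.47 (alpha2delta subunits, 16 h) and 0.35 (the 2 genes outside the families, 16 h).

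Over both times together, limma fitted the 9333 genes whose mean signal was at or above the median, with Benjamini-Hochberg adjustment over all of them. Among the 59 channel genes fitted, 0 were called higher and 0 lower, beside 0.932% and 0.236% of all genes fitted. At an unadjusted p below 0.05, limma had 9 of the 59 (Scn3a, Kcnj11, Cacna1a, Cacnb3, Kcnk1, Kcnh6, Kcnj3, Cacng7 and Kcnb2), beside 13.9% of all genes fitted. By direction, 7 of the 59 were lower with forskolin at that p and 2 of the 59 higher, beside 7.89% and 6.04% of all genes fitted. The test has 1 residual degree of freedom per gene, which comes from the disagreement between the times. Most of the spread it uses comes from a prior drawn from all genes fitted, with 7.86 degrees of freedom. The standard errors therefore reflect a gene's own agreement between times only in part. Clcn5 and Kcnma1, which differed at 1 time only, each had a standard error of 0.28, against a median of 0.22 for the channel genes fitted.

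At 2-fold, 0 of the 162 were higher at both times and 0 lower at both, beside 0.332% and 0.123% of all genes. At 1.5-fold 0 were higher and 2 lower at both, beside 1.1% and 0.825%; the 2 were Cacng6 and Kcnc1, both below the expression level. These counts are too small to be set apart from those shares. The sign was shared by 84 of 162, 51.9%, against 55.2% of all genes. Each time had its own vehicle array. The difference at 16 h exceeded that at 2 h by at least 1 unit in 8 genes (among them Kcnd1, Kcnd3, Kcnh1, Kcnj6, Kcnk2, Kcnma1 and Trpc5) and fell short of it by as much in 3 (Clcn5, Kcna6 and Kcnf1), beside 1.76% and 1.61% of all genes. Among the expressed they were 4 and 1, beside 2.13% and 2.02%. Of these, Kcnh1, Kcnj6, Kcnma1 and Clcn5 were among the expressed. The change between times was not tested.

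**Figure D4:**
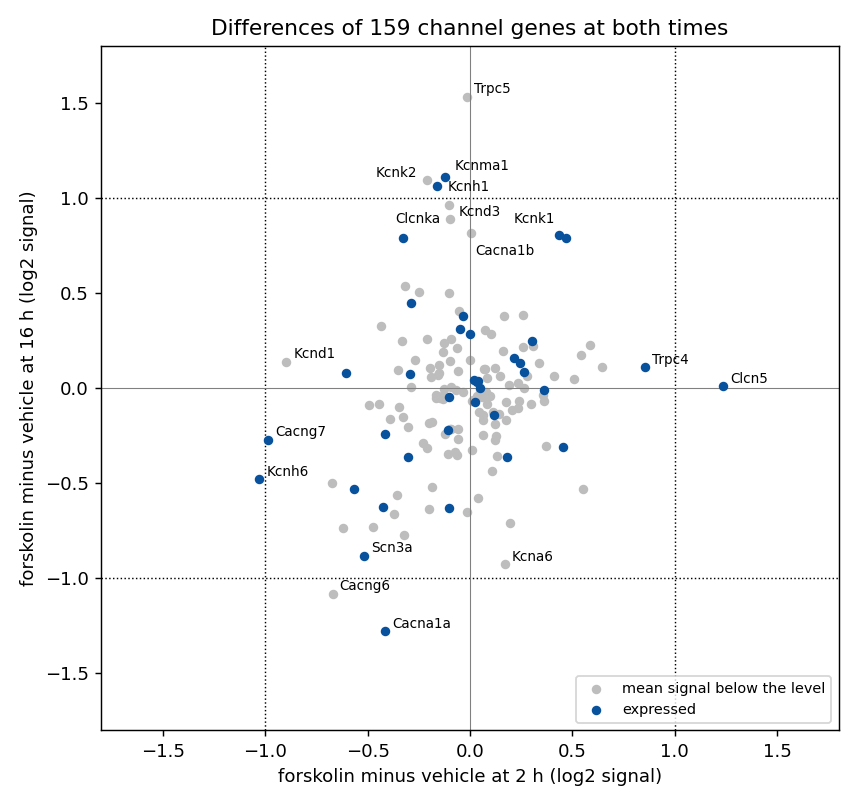
Each point is 1 of 159 of the channel genes, with its log2 difference between forskolin and vehicle at 2 h on the horizontal axis and at 16 h on the vertical axis; blue points are expressed genes, grey points are below the level, and dotted lines mark 2-fold. Clcn5 lies far right at 1.24 and 0.01, Kcnma1 lies near the top, close to 0 on the horizontal axis, Cacna1a lies lowest at -1.28, and no gene lies in a corner beyond 2-fold at both times.

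Other genes of electrical activity and calcium handling that are not members by name were counted too. Of 45 listed, such as KATP regulatory subunits, intracellular calcium channels, ion pumps and the RGK proteins, 44 were measured. At 2 h 2 were at least 2-fold higher and 0 lower, and at 16 h 0 and 0, with medians of -0.03 and 0.04. Over all genes the shares were 1.13% higher and 0.793% lower at 2 h, and 1.32% and 1.1% at 16 h. Both genes higher at 2 h encode RGK proteins, small GTPases that inhibit voltage-gated calcium channels. Gem had 5.64 with vehicle and 7.68 with forskolin at 2 h, and 6.06 and 6.68 at 16 h. Rem2 had 6.43 and 7.43 at 2 h and 6.13 and 6.58 at 16 h. In both, forskolin lay above vehicle at each time, and limma called 0 of the listed genes it fitted. The other RGK genes listed, Rem1 and Rrad, were below the expression level. Rem1 differed by -0.28 at 2 h and 0.08 at 16 h, and Rrad by 0.17 and -0.26.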

How the data were processed

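RNA from INS-1 cells, 1 sample in each of 4 groups, was measured on Affymetrix rat gene arrays. The log2 signals are gene-level RMA values made by the authors, per the file headers. The submitters' processing notes name Affymetrix Expression Console 1.1.1. In RMA, background is removed, arrays share 1 distribution and probes are summarized, which compresses differences of dim genes. The tables of each time were joined on the probe set, and the deposited quotient of log2 signals was not used. Of 29214 probe sets, 20411 carried 1 symbol, 8803 none. For several probe sets of a gene, that with the highest mean over the 4 arrays was kept. Limma 3.58.1 in R 4.3.3 (lmFit, eBayes with trend) used treatment and time as additive terms, and was tested on simulated data. Nothing says that cultures were replicated.

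The members and lists were chosen with earlier results of these data known. Genes named are members past the limma threshold (none), the 10 highest and 10 lowest expressed members at each time, expressed members 2-fold different between vehicle arrays (none), and a fixed list of beta-cell excitability genes, of which 1, Kcnk16, is not among the members. All other members in the text, such as Trpc5, Kcnk2, Cacng6, Kcnc1, Scn2a1 and Scn3b, were named after their values were seen. So were the marker Kdr and the RGK genes Rem1 and Rrad. Deposited symbols were kept; current names differ for 4 (Clcn4, Kcne5, Kcnq5 and Scn2a). Alternatives were a 1.5-fold threshold, expressed members only, a further quantile normalization, cyclic loess, the mean of probe sets, the series matrix values, current symbols, other filters and no prior trend. Some genes among the members are not reported singly here and are left out of the plots of single genes; they stay in all counts and fits.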

Additional observations from a re-analysis of the deposited data

How the results depend on the processing

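The counts of channel genes at least 2-fold different were small, so single genes decide them. At 1.5-fold they were 4 higher and 7 lower at 2 h, and 12 higher and 13 lower at 16 h. The 1 lower gene at 2 h, Kcnh6, was no longer counted (0) after a further quantile normalization and (0) after cyclic loess. Among expressed members only, 3 were higher and 1 lower at 16 h, and the median was 0.04 in place of -0.02. The number of expressed members was 63 at the 75th and 22 at the 95th percentile of the negative controls. Other counts and the medians stayed within 1.5 times, or within the SD of the vehicle difference, under the alternatives run. Limma called 0 channel genes higher and 0 lower under each of its 7 alternatives, with 8 to 15 at an unadjusted p below 0.05. Over all genes its calls went from 87 higher and 22 lower to 7 and 1 with a further quantile normalization, 9 and 1 with cyclic loess, 43 and 8 without the prior trend and 19 and 3 without the filter. Of 450 single-gene values under alternatives, all moved by less than the SD of the vehicle difference, and 12, none above 0.12 in size, changed sign. Many of the 450 could hardly move. The series matrix values differ only by rounding, current symbols keep the same probe sets, and the mean of probe sets alters Scn3a alone. Only the further quantile normalization and cyclic loess tested the other genes. Limma's time term already set forskolin against vehicle within each time. No paired analysis was possible by replicate number because each group has 1 array. No array could be left out, since each is the whole of its group. The signal over background limits the 123 members below the expression level.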

Other observations

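Several channel genes lie next to each other in the rat genome (order of protein-coding genes in GRCr8, used for names and order only). Neighbouring pairs mostly had differences of the same sign at 2 h and of opposite sign at 16 h, but every pair held a gene below the expression level. No such share was taken over other neighbouring genes, so these signs are not read as a pattern. Sharing between neighbours was not tested. Cacng6, Cacng8 and Cacng7 form a run of 3 genes for calcium channel gamma subunits. Their differences at 2 h were -0.67, -0.09 and -0.99, and at 16 h -1.08, 0.01 and -0.27, so the middle gene stayed near 0 between lower neighbours. Scn3a and Scn2a1, neighbouring sodium channel pore genes, differed alike, by -0.52 and -0.47 at 2 h and by -0.88 and -0.73 at 16 h, with Scn2a1 below the expression level. Kcna5, Kcna1 and Kcna6 form a run of potassium channel genes with differences of 0.26, 0.12 and 0.17 at 2 h and of 0.22, -0.19 and -0.93 at 16 h, all below the level. Kcnj6 and its neighbour Kcnj15 differed by -0.33 and -0.09 at 2 h and by 0.79 and -0.22 at 16 h. These are descriptions of single arrays.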
